A study of Mus musculus with 23 samples.

Results

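N-methyl-D-aspartate (NMDA) receptor subunit genes were examined in a hippocampal RNA sequencing (RNA-seq) data set. The group consists of Grin1, Grin2a, Grin2b, Grin2c, Grin2d and Grin3a, taken by gene name as receptor subunits. All 6 were among the 19733 genes in the table, and all 6 passed the filter on low values, an average of 0.1 FPKM or more over all mice (15985 genes passed). FPKM divides the fragments of a gene by its transcript length in kilobases and by the size of the library, so that levels of different genes can be set side by side. The other subunit gene, Grin3b, was listed at 0.05 to 0.28 FPKM and is given only for its level.

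The data set holds hippocampal tissue of 23 male C57BL/6J mice, each wild type. The Ctrl group (n = 9) received a control liquid diet and the carrier, 0.05% carboxymethyl cellulose sodium, by daily oral gavage. The EtOH group (n = 7) received a liquid diet with ethanol and the same carrier. The EtOH-UA group (n = 7) received the ethanol diet and urolithin A (UA), a metabolite that gut bacteria make from ellagitannins, at 200 mg/kg per day in that carrier. The mice were 6 weeks old on arrival and were on the diets for 16 weeks, followed by 1 week of behavior tests, and the 3 comparisons ask whether chronic alcohol, or UA given with it, goes with other subunit mRNA levels. Whole hippocampal tissue was sequenced, so fewer cells of a type and less RNA per cell cannot be told apart. Each column of the table is 1 mouse, so p-values measure the spread between mice.

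An NMDA receptor is a glutamate-gated cation channel made of obligatory GluN1 subunits, encoded by Grin1, and GluN2 or GluN3 subunits. GluN1 and GluN3 bind glycine or D-serine and GluN2 binds glutamate. The GluN2 subunit sets the channel kinetics, magnesium block and intracellular partners of the receptor. In the forebrain GluN2A and GluN2B prevail, with GluN2B leading early in development, GluN2D is found in interneurons, and GluN2C is best known from the cerebellum and from astrocytes. Calcium entry through these receptors triggers forms of synaptic plasticity, and ethanol inhibits them directly.

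The coding sequence shows what the subunit genes share, here for Grin1, a GluN2 gene and a GluN3 gene. The lines below give 51 bases of each, 5′ to 3′ on the coding strand, from the GENCODE M21 transcripts of the mouse assembly GRCm38. The 21 bases in capitals are the 7 codons that specify the same residues in all 6 subunits; they lie in the third membrane segment, which forms part of the channel gate.
Grin1: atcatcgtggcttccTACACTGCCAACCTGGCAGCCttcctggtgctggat
Grin2c: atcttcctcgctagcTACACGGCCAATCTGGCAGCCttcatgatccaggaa
Grin3a: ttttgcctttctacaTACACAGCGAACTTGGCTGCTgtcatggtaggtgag

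All 6 genes are on the minus strand. The capitals lie in exon 14 of Grin1 (chr2:25297202-25297222), exon 11 of Grin2c (chr11:115253752-115253772) and exon 3 of Grin3a (chr4:49770473-49770493). Against Grin1, the capital bases differed at 2 positions in Grin2c and at 5 in Grin3a, all of them synonymous.

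The genes differ far more in transcript length than in coding length. The coding sequence runs from 2814 bases in Grin1 to 4446 in Grin2b, whereas the longest annotated transcript is 4276 bases for Grin1, 4895 for Grin2c, 5431 for Grin2d, 7491 for Grin3a, 14634 for Grin2a and 24060 for Grin2b. Of the 12904 genes that averaged 1 FPKM or more, 0.491% had a transcript as long as that of Grin2a and 0.0317% one as long as that of Grin2b. Coding GC content was lowest in Grin2a (50.8%) and highest in Grin2d (67.3%). Grin1 shares 1307 exon bases with the opposite-strand gene Grin1os, which was listed at a mean of 10.4 FPKM. Whether the counting used strand is not given in the sources used here, so a part of either value may belong to the other.

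The hippocampal subfield and neuronal markers were present in every mouse. Snap25, the most abundant of the pan-neuronal markers, had a mean of 1102 FPKM. Choroid plexus markers, led by Ttr, summed to between 7.88 and 2977 FPKM in Ctrl mice, 70.6 and 5763 in EtOH mice and 16.02 and 7823 under UA, while 3 of 4 cerebellar granule cell markers had means below 0.1 FPKM. A set of 6 libraries stood apart by a summed FPKM above 350000, 3 from Ctrl, 1 from EtOH and 2 from EtOH-UA, against 327896 to 346742 in the other 17. In them long transcripts read low relative to short ones. This was measured as the length slope, the slope of each gene's log2 deviation from its mean over mice on the log2 length of its longest transcript, across 12618 genes. The slope was -0.262 to -0.0587 in the 6 libraries and -0.0102 to 0.0921 in the others.

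The 6 genes spanned a 30.04-fold range of mean level. Grin1, the obligatory subunit, was the most abundant in every mouse. Its FPKM ran from 107.2 to 119.1 (median 113.7) in Ctrl mice, from 96.6 to 119.2 (median 106.0) in EtOH mice and from 85.7 to 117.9 (median 108.6) in EtOH-UA. The 3 ranges overlapped, and the lowest EtOH-UA mouse lay well below the other 6.

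Grin2b and Grin2a, the main GluN2 genes of forebrain, came next. Grin2b ran from 27.5 to 41.4 FPKM (median 33.8) in Ctrl mice, from 27.9 to 40.1 (median 36.7) in EtOH mice and from 18.6 to 38.8 (median 36.5) in EtOH-UA. Grin2a ran from 21.2 to 35.2 FPKM (median 28.0), from 24.7 to 32.7 (median 27.6) and from 20.6 to 33.9 (median 31.8) in the same order of groups. Ranges overlapped widely for both, and in EtOH-UA the lower tail was longer than the upper.

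The remaining genes were less abundant. Grin2c had 10.2 to 13.6 FPKM (median 12.5) in Ctrl mice, 10.3 to 15.2 (median 12.1) in EtOH mice and 9.69 to 13.6 (median 13.3) in EtOH-UA. Grin3a, a glycine-binding subunit that lowers calcium entry, had 4.83 to 9.70 FPKM (median 6.71), 5.40 to 8.56 (median 7.13) and 3.27 to 8.03 (median 5.94). Grin2d had 3.14 to 4.05 FPKM (median 3.94), 3.06 to 4.19 (median 3.65) and 2.67 to 4.49 (median 3.65). None of these 3 genes had a group that stood clear of another.

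**Figure D1:**
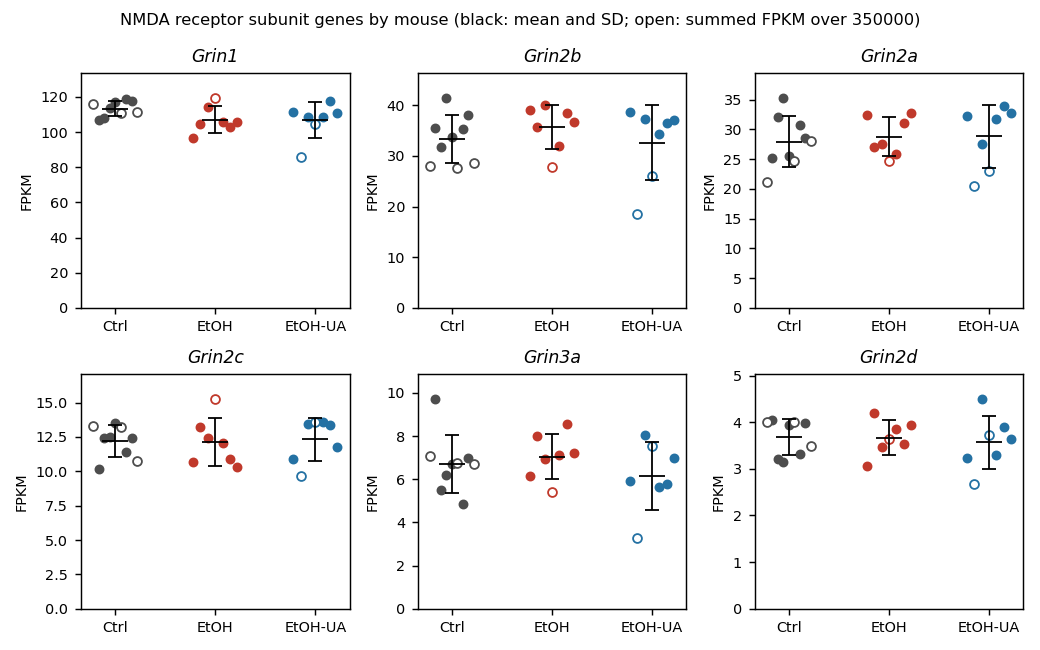
FPKM (linear axis from 0) of the 6 subunit genes in each mouse by group, with black bars for mean and SD (n = 9, 7 and 7) and open points for the 6 libraries with a summed FPKM over 350000. Groups overlap for every gene, and the open points are the 6 lowest values of Grin2b (18.6 to 28.6 FPKM).

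The order of the levels was almost the same in all mice. Grin1 exceeded Grin2b in 23 of 23 mice with a ratio of means of 3.23, Grin2a exceeded Grin2c in 23 of 23 (2.33), Grin2c exceeded Grin3a in 23 of 23 (1.84) and Grin3a exceeded Grin2d in 23 of 23 (1.82). The neighbours Grin2b and Grin2a were less well separated, with a ratio of 1.19. Grin2b was the higher in 21 mice, and 1 Ctrl and 1 EtOH-UA mouse had more Grin2a, so these neighbours did not differ beyond their spread in every mouse.

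The GluN2 genes together made up a similar pool in each group. Grin2b took 43.1% ± 2.73 (SD, n = 9) of the summed GluN2 FPKM in Ctrl mice, 44.3% ± 2.80 (n = 7) in EtOH mice and 41.8% ± 3.33 (n = 7) in EtOH-UA. Grin2a took 36.1% ± 3.02, 35.8% ± 2.28 and 37.3% ± 2.41 in the same order. Grin2c took 15.97% ± 2.36, 15.3% ± 3.19 and 16.3% ± 2.69, and Grin2d took 4.85% ± 0.861, 4.60% ± 0.638 and 4.68% ± 0.725. Differences in mean share between groups were smaller than the SD within groups for all 4 genes.

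The ratio of Grin2a to Grin2b, which rises as forebrain matures, averaged 0.842 ± 0.106 in Ctrl mice, 0.810 ± 0.0707 in EtOH mice and 0.899 ± 0.112 under UA (SD, n = 9, 7 and 7). Its ranges were 0.712 to 1.01, 0.689 to 0.891 and 0.738 to 1.10. The summed GluN2 level relative to Grin1 was 0.680 ± 0.0692, 0.755 ± 0.0915 and 0.720 ± 0.0705. These ratios were not tested, and their group ranges overlapped. They also differed with the library. In the 6 libraries of high summed FPKM the GluN2 sum relative to Grin1 was 0.612 ± 0.0247 (SD, n = 6) against 0.752 ± 0.0565 in the other 17, and Grin2a relative to Grin2b was 0.917 ± 0.117 against 0.826 ± 0.0867, gaps as large as those between groups.

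**Figure D2:**
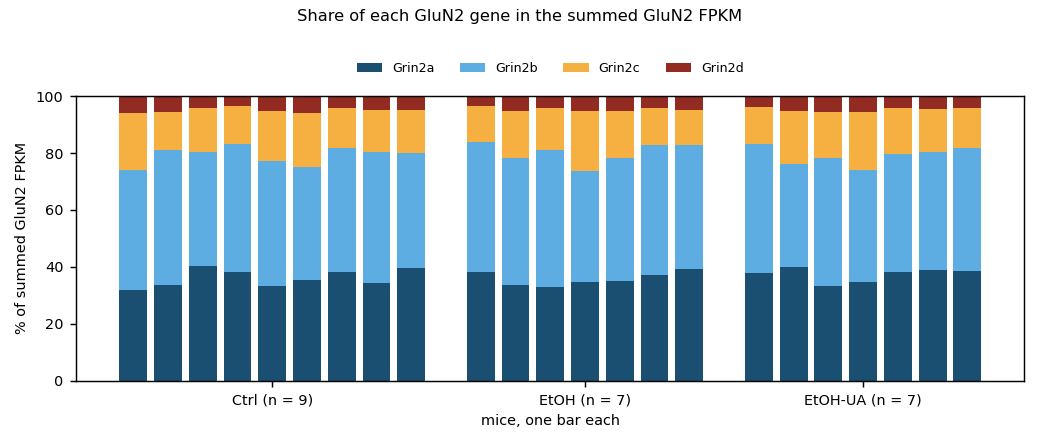
Share (%) of Grin2a, Grin2b, Grin2c and Grin2d in the summed GluN2 FPKM, 1 stacked bar per mouse, by group (n = 9, 7 and 7). Grin2b and Grin2a fill most of every bar, and Grin2d takes 3.404% to 6.02% in any mouse.

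The comparison of EtOH with Ctrl asks what the alcohol diet did to these mRNAs. No subunit gene passed the adjusted threshold of 0.05 in limma, nor did any of the 15985 genes tested (0%). Grin1 had a mean of 107.0 ± 7.55 FPKM (SD, n = 7) in EtOH and 113.4 ± 4.25 (n = 9) in Ctrl. Of the 7 EtOH mice, 5 lay below the lowest Ctrl mouse, 1 lay within the Ctrl range and 1 above it, so the groups overlapped, as they did for all 6 genes (0.00626% of all genes had groups that did not overlap). The log2 fold change of Grin1 was -0.09 (SE 0.05, 95% confidence interval -0.20 to 0.03, limma adjusted p = 0.999).

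The unadjusted limma p of Grin1 was 0.129, and a two-sided exact permutation test of the same difference gave p = 0.0466. Grin1 was thus 1 of 6 subunit genes with an exact p under 0.05, beside 3.54% of all genes tested. Without the 6 libraries of high summed FPKM, the Grin1 log2 fold change was -0.12 (SE 0.04, limma unadjusted p = 0.0119, adjusted p = 0.9999), where 3.78% of all genes had an unadjusted p under 0.05. The size of the difference was thus similar with and without these libraries, and its adjusted p stayed far from the threshold.

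The other subunit genes had log2 fold changes of -0.01 to 0.10 between EtOH and Ctrl, each with a larger SE than that of Grin1. They were 0.10 (SE 0.13) for Grin2b, 0.05 (SE 0.11) for Grin2a, -0.01 (SE 0.09) for Grin2c, -0.00 (SE 0.09) for Grin2d and 0.08 (SE 0.15) for Grin3a. The 95% confidence intervals reached from -0.16 to 0.36 for Grin2b and from -0.23 to 0.38 for Grin3a, the widest of the 6. These intervals limit the size of a change but do not show that the groups were alike.

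The comparison of EtOH-UA with EtOH asks what UA added under the same diet. No subunit gene passed (0% of all genes tested), and 0 of 6 had an unadjusted limma p under 0.05, beside 3.27% of all genes. Grin3a had the largest difference, with 6.17 ± 1.57 FPKM (SD, n = 7) in EtOH-UA against 7.05 ± 1.06 (n = 7) in EtOH, a log2 fold change of -0.22 (SE 0.16, 95% confidence interval -0.54 to 0.10, limma adjusted p = 0.900). Of the 7 EtOH-UA mice, 2 were above the EtOH median of Grin3a, and the exact permutation p was 0.253. None of the 6 had an exact p under 0.05 (3.1% of all genes) or groups that did not overlap (0.025% of all genes).

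Grin2b had 32.6 ± 7.49 FPKM in EtOH-UA and 35.7 ± 4.36 in EtOH, a log2 fold change of -0.16 (SE 0.13, limma adjusted p = 0.900). A single EtOH-UA library, that with the highest summed FPKM of all (404609), carried much of both differences. Without it the log2 fold change was -0.03 for Grin2b and -0.08 for Grin3a. The other values were -0.01 (SE 0.06) for Grin1, -0.01 (SE 0.11) for Grin2a, 0.03 (SE 0.09) for Grin2c and -0.05 (SE 0.10) for Grin2d.

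EtOH-UA and Ctrl, which differ in both diet and UA, were also compared, with the same Ctrl mice as above. No subunit gene passed (0% of all genes), and none had an unadjusted limma p under 0.05, beside 3.08% of all genes. Grin1 had 106.7 ± 10.2 FPKM in EtOH-UA and a log2 fold change of -0.09 (SE 0.05, limma adjusted p = 0.999, exact permutation p = 0.0634). Only 1 of 7 EtOH-UA mice was above the Ctrl median of Grin1. None of the 6 had an exact permutation p under 0.05 (2.98% of all genes) or groups that did not overlap (0.0125% of all genes). Log2 fold changes were 0.04 for Grin2a, -0.06 for Grin2b, 0.01 for Grin2c, -0.05 for Grin2d and -0.15 for Grin3a. Without the library of highest summed FPKM those of Grin1 and Grin3a were -0.04 and -0.00.

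**Figure D3:**
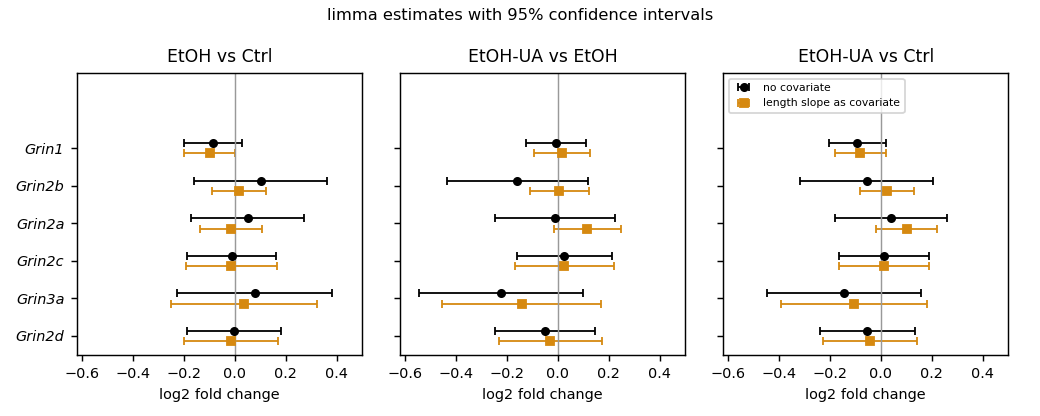
Log2 fold change of the 6 subunit genes in the 3 comparisons, as limma estimates with 95% confidence intervals, without a covariate (black circles) and with the length slope as covariate (orange squares). Every black interval includes 0, and the Grin2b and Grin2a intervals narrow with the covariate.

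The spread between mice of a group differed between subunit genes. Within groups, the SD of log2 FPKM was 0.31 for Grin3a, 0.27 for Grin2b, 0.23 for Grin2a, 0.18 for Grin2d, 0.18 for Grin2c and 0.10 for Grin1. Counting error was smaller than this spread. From the smallest steps in the deposited values, about 331 fragments per mouse were estimated for Grin2d and 13628 for Grin2b, a counting CV of 5.49% and 0.857%, whereas the CV between mice of a group was 10.1% to 16.1% for Grin2d and 12.2% to 22.9% for Grin2b. The part of it that went with the library did not have the same order. The length slope of the library went with 85.6% of the within-group variance of Grin2b and 73.4% of that of Grin2a, the genes with the longest transcripts. It went with 15.3% for Grin3a, 12.5% for Grin1, 2.86% for Grin2d and 0.00173% for Grin2c.

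Grin2b ran from 18.6 to 28.6 FPKM in the 6 libraries of high summed FPKM and from 31.8 to 41.4 in the other 17, with no overlap. Grin2a ran from 20.6 to 28.0 and from 25.3 to 35.2, with some overlap. Grin1 (85.7 to 119.2 and 96.6 to 119.1) and Grin2c (9.69 to 15.2 and 10.2 to 13.6) covered similar ranges in both sets. The share of Grin2b in the GluN2 sum was 39.4% ± 1.98 (SD, n = 6) in the first and 44.4% ± 2.08 (n = 17) in the second, so the apparent subunit makeup also moved with the library.

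Over the 23 mice, with group means removed, Grin2b correlated with the length slope at Pearson r = 0.925 and Grin2a at r = 0.857. The Benjamini-Hochberg adjusted permutation p over 48 relations of subunit genes with library and marker measures was 0.00012 for each. Of the 12904 genes, 0.821% had an r at least that of Grin2b and 3.79% one at least that of Grin2a. Counted in either direction, by absolute r, these shares were 4.91% and 13.9%. In the 17 libraries alone r was 0.375 for Grin2b (adjusted permutation p = 0.412) and 0.686 for Grin2a (adjusted permutation p = 0.0516), so for Grin2b the relation rests on the 6 libraries. The slope itself moved almost exactly with the log2 summed FPKM (r = -0.996).

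**Figure D4:**
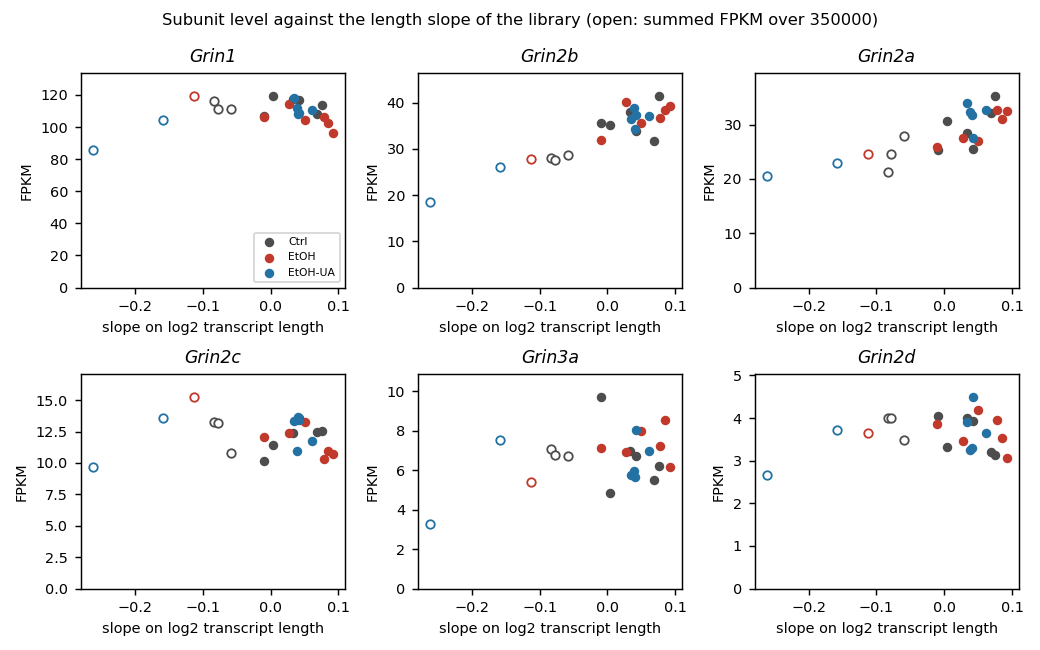
FPKM of each subunit gene (vertical axes from 0) against the length slope of the library (log2 FPKM per log2 base), 1 point per mouse coloured by group, with open points for the 6 libraries with a summed FPKM over 350000. Grin2b and Grin2a rise with the slope (r = 0.925 and 0.857 on the log2 scale with group means removed), and Grin2c does not follow it.

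With the length slope as a covariate the fit of Grin2b became more precise. Its SE in the EtOH comparison with Ctrl went from 0.13 to 0.05, and its log2 fold changes were 0.02 for EtOH against Ctrl, 0.01 for EtOH-UA against EtOH and 0.02 for EtOH-UA against Ctrl. For Grin2a they were -0.02, 0.12 and 0.10, each with a limma adjusted p of at least 0.881. For Grin2b between EtOH-UA and EtOH the 95% confidence interval with the slope in the model was -0.11 to 0.12, around an estimate that was -0.16 without it.

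Pairs of subunit genes were compared across mice with group means removed, which gave 15 pairs. Grin2d and Grin3a varied together at Pearson r = 0.745 and Spearman rho = 0.729 (adjusted permutation p = 0.00045 and 0.00165). Without the 2 mice farthest from the median r was 0.619, with the slope on length removed it was 0.748, and without the 6 libraries it was 0.686 (n = 17, adjusted permutation p = 0.0256). Within groups r was 0.713 (Ctrl), 0.403 (EtOH) and 0.878 (EtOH-UA). Mice with more Grin2d thus had more Grin3a in each setting.

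Grin2a and Grin2b correlated at r = 0.793 (rho = 0.725, adjusted permutation p = 0.00015 and 0.00172). This did not hold once the length slope was taken out (r = -0.00), and r was 0.38 without the 6 libraries (adjusted permutation p = 0.497). Without the 2 mice farthest from the median r was 0.696, and within groups it was 0.650 (Ctrl), 0.735 (EtOH) and 0.911 (EtOH-UA). When libraries were scaled to the same sum it was 0.876 (adjusted permutation p = 0.00015), so the relation depended on how the libraries were adjusted. Grin1 and Grin2c correlated at r = 0.622 (adjusted permutation p = 0.0055), but the rank correlation was 0.419 (adjusted p = 0.237) and r fell to 0.362 without the 2 mice farthest from the median, so at its full size this relation rests on those mice. With the slope removed r was 0.663 (adjusted permutation p = 0.0033), without the 6 libraries it was 0.348 (adjusted permutation p = 0.511), and within groups it was 0.421 (Ctrl), 0.740 (EtOH) and 0.661 (EtOH-UA). Grin2a and Grin2d, at r = -0.16 as deposited, stood at -0.61 with the slope removed (adjusted permutation p = 0.0114) and at -0.68 without the 6 libraries (adjusted permutation p = 0.0259).

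The minor subunits also moved with cell type markers. The interneuron score, the mean log2 deviation of Gad1, Gad2, Slc32a1, Pvalb, Sst, Vip, Lhx6 and Npy, correlated with Grin3a at r = 0.711 and rho = 0.786 (adjusted permutation p = 0.00202 and 0.000288 over the 48 relations). Without the 2 farthest mice r was 0.745, and with the length slope removed it was 0.862. It was 0.752 in the 17 libraries (adjusted permutation p = 0.0298). Grin2d correlated with the same score at r = 0.638 and rho = 0.657 (adjusted permutation p = 0.00713 and 0.00582), with 0.699 without the 2 farthest mice, 0.689 with the slope removed and 0.641 in the 17 libraries (adjusted permutation p = 0.0516).

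Gene by gene over the 23 mice, Grin3a followed Gad2 (r = 0.774), Gad1 (r = 0.716), Slc32a1 (r = 0.687) and Lhx6 (r = 0.686) most closely. Gad1 and Gad2 make GABA, Slc32a1 loads it into vesicles, and Lhx6 is a transcription factor of medial ganglionic eminence interneurons. Vip (r = 0.588) and Sst (r = 0.481) lay between, and Grin3a followed Pvalb (r = 0.203) and Npy (r = 0.116) least. Grin2d followed Lhx6 (r = 0.694), Slc32a1 (r = 0.638) and Sst (r = 0.592) most closely and Pvalb least (r = 0.156). Its r was 0.512 with Vip, 0.426 with Gad1, 0.397 with Gad2 and 0.280 with Npy. The interneuron markers summed to 308.4 to 517.3 FPKM in Ctrl mice, 336.2 to 448.1 in EtOH mice and 334.2 to 528.2 under UA, and all 8 were detected in every mouse. Their part in the group values of Grin3a and Grin2d was not tested. Grin3a also moved against markers of other tissue when the length slope was removed, at r = -0.60 for choroid plexus and r = -0.62 for thalamus and habenula (adjusted permutation p = 0.0230 for each). With the slope left in these values were -0.46 (adjusted permutation p = 0.126) and -0.16 (adjusted permutation p = 0.662). Without the 6 libraries of high summed FPKM they were -0.28 (adjusted permutation p = 0.569) and -0.55 (adjusted permutation p = 0.162). When libraries were scaled to the same sum they were -0.35 (adjusted permutation p = 0.180) and 0.18 (adjusted permutation p = 0.515). The part of these markers in the Grin3a values was not tested either.

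Grin2c moved with the astrocyte score (Aqp4, Aldh1l1, Gja1, Gfap, Slc1a3, Slc1a2 and Aldoc) at r = 0.572 and rho = 0.700 (adjusted permutation p = 0.0210 and 0.00288). Without the 2 farthest mice r was 0.635, with the slope removed 0.580 and in the 17 libraries 0.637 (adjusted permutation p = 0.0516). Single astrocyte genes correlated less well, from r = 0.139 for Aqp4 to r = 0.452 for Aldh1l1, a folate enzyme. Grin2a and Grin2b correlated with markers of thalamus and habenula (r = 0.669 and 0.591, adjusted permutation p = 0.00488 and 0.0169), whose score itself followed the length slope (r = 0.669). With the slope removed these values were 0.250 and -0.10. In the 17 libraries they were 0.485 and 0.346 (adjusted permutation p = 0.256 and 0.412). When libraries were scaled to the same sum they were 0.809 and 0.768 (adjusted permutation p = 0.00024 and 0.000288). These scaled values were not particular to thalamus and habenula. The same scaling gave Grin2a and Grin2b r = 0.865 and 0.746 with a score of excitatory neuron markers (adjusted permutation p = 0.00024 and 0.000288). Without scaling those 2 values were 0.379 and 0.039.

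**Figure D5:**
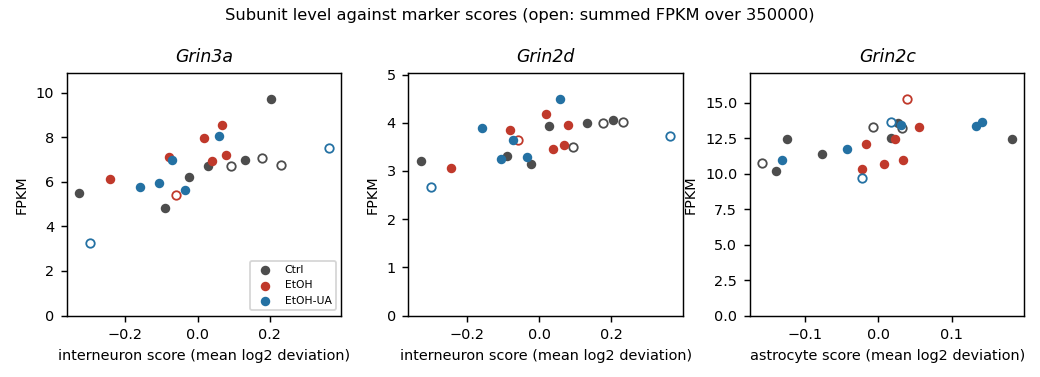
FPKM of Grin3a and Grin2d against the interneuron score and of Grin2c against the astrocyte score (each the mean log2 deviation of the marker genes from their means over mice), 1 point per mouse coloured by group, open points for a summed FPKM over 350000. Grin3a and Grin2d are higher in mice with a higher interneuron score (r = 0.711 and 0.638 with group means removed), and points of the 3 groups are intermixed.

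The genes whose pattern over the 23 mice was most like that of each subunit were listed among the 12904 genes by Pearson r of log2 deviations from group means. For Grin1 they were Iqsec2 (r = 0.915) and Coro7 (r = 0.905), and for Grin2c Bcan (r = 0.857), Ppp1r18 (r = 0.811) and Sfxn5 (r = 0.811). Grin2a was closest to Zeb2 (r = 0.950), Nebl (r = 0.942) and Tcf4 (r = 0.933). Grin2b was closest to Ppp1r9a (r = 0.977), Tnr (r = 0.957) and Kcnq3 (r = 0.956).

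The genes closest to Grin2a and Grin2b have long transcripts too, from 8079 bases for Nebl to 12202 for Tnr. Grin2d was closest to Asic1 (r = 0.891), Frmpd3 (r = 0.880) and Tmem130 (r = 0.869), and Grin3a to Gabra3 (r = 0.953), a GABA-A receptor subunit, Adra1a (r = 0.921), an adrenergic receptor, and Ccn3 (r = 0.919). No other subunit gene was among the 3 nearest genes of any member of the family.

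Other genes of NMDA receptor signaling were taken from a list of 68 covering scaffold and auxiliary proteins, kinases and phosphatases, supply of the co-agonists glycine and D-serine, and the response to calcium. Of these, 66 were tested and Dao and Slc6a5 fell below the filter (means of 0.0913 and 0.0313 FPKM). None passed the adjusted threshold in any comparison, as among all genes (0%). The median log2 fold change of the 66 genes was 0.00 for EtOH against Ctrl, -0.01 for EtOH-UA against EtOH and -0.01 for EtOH-UA against Ctrl. Dlg4, which encodes the scaffold PSD-95 that anchors GluN2 tails, had 203.2 ± 8.78 FPKM in Ctrl mice (SD, n = 9), 199.97 ± 19.4 in EtOH mice and 199.8 ± 17.8 under UA (n = 7 each).

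In EtOH against Ctrl, 0 of 66 list genes had an unadjusted limma p under 0.05, beside 3.05% of all genes. The smallest unadjusted limma p among genes higher in EtOH were those of Akap9, an anchor of kinases (log2 fold change 0.24, SE 0.12), Cask (0.07, SE 0.05) and Slc7a10, a transporter of D-serine and glycine (0.12, SE 0.10). Among genes lower in EtOH they were those of Shmt2, a mitochondrial enzyme of serine and glycine conversion (-0.10, SE 0.06), Slc1a5 (-0.23, SE 0.15) and Ppp3r1, the regulatory subunit of calcineurin (-0.10, SE 0.07).

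In EtOH-UA against EtOH, 2 of 66 list genes had an unadjusted limma p under 0.05, beside 3.27% of all genes. These were Ppp3r1 (log2 fold change 0.16, SE 0.07) and Dlg3, which encodes the scaffold SAP102 (0.09, SE 0.04), both with a limma adjusted p above the threshold. Next came Lin7b among the higher genes (0.17, SE 0.09) and, among the lower, Nos1, the neuronal nitric oxide synthase (-0.19, SE 0.10), the actin crosslinker Actn2 (-0.15, SE 0.09) and Cask (-0.10, SE 0.06). The count of 2 ran from 0 to 6 when 1 mouse was left out. It was 6 without the EtOH library of high summed FPKM and 1 without the EtOH-UA library of highest summed FPKM. The count over all genes moved the same way in these 2 fits. It was 523 of 15985 with all mice, 1240 of 15985 without the first library and 307 of 15981 without the second. Estimates were positive for 28 of the 66 genes, for 34 without that EtOH-UA library and for 39 without the 6 libraries. The list median was -0.012, 0.0016 and 0.017 in these fits, beside 0.0033, -0.00066 and 0.0004 over all genes. All were near 0, so the list had no clear direction.

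In EtOH-UA against Ctrl, 0 of 66 list genes had an unadjusted limma p under 0.05, beside 3.08% of all genes. The smallest were those of Dlg3 (log2 fold change 0.06), Slc7a10 (0.14) and the calcium-activated kinase Ptk2b (0.10) among positive estimates and of Dlg2 (-0.11) and Apba1 (-0.11) among negative ones.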

How the data were processed

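RNA-seq libraries of hippocampal tissue from 23 mice were deposited as 1 table of FPKM values per gene, which the authors made with RSEM. Their methods name poly(A)-selected libraries, Bowtie2 and the mm10 genome, and the submitters' processing notes list HISAT2 2.1.0, Bowtie2 2.2.5, RSEM 1.2.8, StringTie and DESeq. Per the file headers, column names give the group and a number that is in no sample label, and columns were used as replicates of their group. The study's methods name a count test, which FPKM do not allow, so log2(FPKM + 0.1) was fitted with limma 3.58.1 (R 4.3.3; eBayes with trend) for genes averaging 0.1 FPKM or more. A 3-group model over all mice was used, with Benjamini-Hochberg adjustment over all genes and 95% confidence intervals. Fold changes are on the log2(FPKM + 0.1) scale and understate changes of low genes. The limma script was tested on simulated data. Exact permutation tests compared mean log2 values of the mice of 2 groups. Correlations used deviations from group means and 100000 permutations, for which 1e-05 is the smallest p possible, with Benjamini-Hochberg adjustment within each family of relations.

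The total read count is not given by FPKM. The smallest steps in the values of 12 single-transcript genes put 1 FPKM at 16.7 fragments per kilobase (median). From this, fragments per mouse were estimated for 1 principal coding transcript of each gene, covering counting error only. For Grin2b and Grin2d that transcript is also the longest. Alternatives were the pseudocount, the filter, the samples fitted, 3 scalings, robust and weighted fits, covariates and leaving out each mouse. Leaving out the 6 libraries with a summed FPKM over 350000, the class of these libraries as a covariate and the other settings of the correlations were added after seeing the data. The text names all 6 subunit genes, the 3 list genes of smallest p per direction and comparison, and the 3 genes most like each subunit gene. Subunit genes were taken by name, but the choice of this family, its members and the lists was made with earlier results of these data known. Protein sequences were not used here, and coding sequence from GENCODE M21 (GRCm38) is shown in their place for 3 of the genes. Some items that these rules would name are not reported here.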

Additional observations from a re-analysis of the deposited data

Results flagged for a closer look

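In each group of mice the lowest and the highest value of every subunit gene, and of the Grin2a to Grin2b ratio, were set against the others by Dixon's gap, the distance to the nearest other mouse as a share of the range of the group. Of 21 groups checked, 2 had a gap above the 95% critical value of 0.568 for 7 mice, and chance gives about 1 in 20, or 1.05 here. In EtOH-UA the lowest Grin1 value was 85.66 FPKM against 104.3 for the next mouse and 117.8 for the highest, a gap of 0.618 of the range. In the same group the lowest Grin3a value was 3.27 FPKM against 5.64 and 8.03, a gap of 0.605 on the log2 scale. Both values came from 1 mouse, whose library had the highest summed FPKM of all (404609) and the most negative length slope (-0.262). It also had the lowest values of Grin2a (20.6 FPKM), Grin2b (18.6 FPKM), Grin2c (9.69 FPKM) and Grin2d (2.67 FPKM) of its group. The cause was not tested.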

How the results depend on the processing

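No subunit gene passed the adjusted threshold under any alternative. Over 222 fits of single genes per comparison the smallest limma adjusted p was 0.552 for EtOH against Ctrl, 0.574 for EtOH-UA against EtOH and 0.717 for EtOH-UA against Ctrl. Estimates near 0 changed sign, and so did that of Grin2b for EtOH-UA against EtOH, which was -0.16 without a covariate. For EtOH against Ctrl, log2 fold changes were -0.0153 for Grin2a with the length slope as covariate, -0.00054 without the 6 libraries over 350000 summed FPKM and -0.0153 with library class. Grin2c was 0.0121 when libraries were scaled to the same sum and 0.0257 with the choroid plexus score as covariate. Grin2d was 0.0207 when scaled, 0.0046 with upper-quartile scaling, 0.0102 with array weights, 0.0440 with the choroid plexus score and 0.0267 without the 6 libraries. For EtOH-UA against EtOH, Grin1 was 0.0543 with array weights, 0.0170 with the slope and 0.0868 without the 6 libraries, and Grin2a was 0.10, 0.12 and 0.11, and 0.0378 with library class. Grin2b was 0.00568 with the slope, Grin2c -0.0253 when scaled and Grin2d 0.0134 without the 6 libraries. For EtOH-UA against Ctrl, Grin2b was 0.10 with array weights, 0.0226 with the slope and 0.0368 without the 6 libraries, Grin2c was -0.0131 when scaled and Grin2d 0.0401 without the 6 libraries. With array weights the unadjusted limma p of Grin1 for EtOH against Ctrl was 0.0178, when 1403 of 15985 genes had one under 0.05, and 1 gene of the whole table passed in that comparison. The cause was not tested.

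Leaving out each mouse moved EtOH against Ctrl between -0.11 and -0.061 for Grin1, 0.0039 and 0.095 for Grin2a, 0.070 and 0.16 for Grin2b, -0.069 and 0.024 for Grin2c, -0.036 and 0.038 for Grin2d and 0.022 and 0.15 for Grin3a. For EtOH-UA against EtOH the ranges were -0.032 to 0.045, -0.055 to 0.065, -0.22 to -0.031, -0.012 to 0.082, -0.11 to 0.016 and -0.29 to -0.082 in that order of genes, and for EtOH-UA against Ctrl -0.12 to -0.041, -0.0084 to 0.12, -0.10 to 0.072, -0.019 to 0.068, -0.11 to 0.012 and -0.22 to -0.0043. The mouse with a summed FPKM of 404609 gave the end nearer to 0 for Grin2b and Grin3a between EtOH-UA and EtOH. The count of all genes passing ran from 0 to 1 in each comparison, with 1 gene passing without 1 Ctrl mouse for EtOH against Ctrl and without either of 2 EtOH-UA mice for the other comparisons, and that of subunit genes stayed at 0. List genes with an unadjusted limma p under 0.05 ran from 0 to 2 for EtOH against Ctrl, 0 to 6 for EtOH-UA against EtOH (moved by over 1.5 times in 10 of 23 fits, and 1, a lower gene, when scaled to the same sum) and 0 to 1 for EtOH-UA against Ctrl. Over the same 23 fits the count among all genes ran from 315 to 938, 307 to 1240 and 346 to 728 in that order, of 15972 to 16003 tested.

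Of 15 subunit pairs, 3 were correlated at an adjusted permutation p under 0.05, and 10 when libraries were scaled to the same sum. So scaled, r was 0.691 for Grin1 with Grin2a and 0.811 for Grin1 with Grin2b (adjusted permutation p = 0.00112 and 0.0002). With quantile normalization these were 0.730 and 0.850 (adjusted permutation p = 0.000225 and 7.5e-05). Grin1 with Grin2c was 0.394 there (adjusted permutation p = 0.134). Without the 6 libraries r was -0.083 for Grin1 with Grin2a, -0.26 for Grin1 with Grin3a, -0.57 for Grin2a with Grin3a and -0.23 for Grin2b with Grin2d. With the slope removed it was -0.0012 for Grin2a with Grin2b, -0.57 for Grin2a with Grin3a and -0.10 for Grin2b with the thalamus score, and Grin2a with Grin2d was 0.26 when scaled. Depth limits Grin2d most. No paired analysis was possible because the numbers in the column names tie no mouse of one group to a mouse of another.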
